A study of Homo sapiens with 3 samples.

Results

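The mitochondrial genome encodes 7 subunits of respiratory complex I, and the genes ND1, ND2, ND3, ND4, ND4L, ND5 and ND6 carry A-to-G sites in the HyperTRIBE lists analysed here. The members were the entries on the mitochondrial chromosome whose gene name starts with ND. They made up 154 of the 16820 distinct positions in the 3 lists together, beside 187 positions in the other mitochondrial genes. HyperTRIBE joins an RNA-binding protein to a hyperactive form of the catalytic domain of ADAR, an enzyme that deaminates adenosine to inosine, so that RNA near the fused protein is read with G in place of A. The fused protein was DDX41, a DEAD-box RNA helicase that is mutated in myeloid neoplasms. THP-1, a monocytic leukemia line of human origin, carried a pGK-GFP retrovirus made in 293T cells with DDX41 joined to the domain (DDX41-ADARcd), with the domain by itself (ADARcd alone) or with no insert (empty vector). Total RNA was taken at day 7, with 1 library in each of the 3 groups, so nothing here has a replicate error and every test compares the reads of libraries, not conditions. The lists set DDX41-ADARcd against ADARcd alone, DDX41-ADARcd against the empty vector, and ADARcd alone against the empty vector.

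Complex I oxidises NADH, passes the electrons to ubiquinone and pumps protons across the inner mitochondrial membrane. ND1 sits where the membrane arm meets the peripheral arm and helps to form the ubiquinone-binding site. ND2, ND4 and ND5 are the antiporter-like subunits that line the proton path of the membrane arm, and ND3, ND4L and ND6 are small subunits near the junction. Most subunits of the complex are encoded in the nucleus, while the ND mRNAs are transcribed, cleaved from long polycistronic precursors and translated inside the organelle. ND4L and ND4 stay on a shared mRNA with overlapping reading frames, and ND6 lies on the opposite strand from the others.

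In ND4 and ND5, the position with most edited reads in each transduced library lay in a short stretch. The sequences of these stretches are shown because the results below turn on the bases around the edited A. They were taken from the GENCODE 29 transcripts on GRCh38 and are written 5′ to 3′ on the transcript strand. Capitals mark each A listed in at least 1 of the 3 lists. The first is in the antiporter-like subunit gene ND4, and both of the next are in ND5, also of the antiporter-like group, all on the plus strand.
ND4 chrM:10933-11021: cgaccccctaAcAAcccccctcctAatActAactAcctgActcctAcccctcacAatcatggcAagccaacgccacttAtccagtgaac
ND5 chrM:13418-13457: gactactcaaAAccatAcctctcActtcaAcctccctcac
ND5 chrM:13762-13800: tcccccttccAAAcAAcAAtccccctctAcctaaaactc
The ND4 stretch holds 12 listed A within 69 bases, and runs of C flank the first 3 of them. The ND5 stretches hold 5 listed A within 20 bases and 8 within 19 bases.

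For contrast, the windows around a position of ND2 and a position of the minus-strand gene ND6 that were listed for both transduced libraries are shown with the listed A in capitals.
ND2 chrM:5312-5332: catagccaccAtcaccctcct
ND6 chrM:14343-14363: tgtgggtgaaAgagtatgatg
The listed A of ND6 is preceded by A and followed by G.

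Every member had listed sites, but they were spread unevenly. ND1 (ENSG00000198888.2, chrM:3307-4262, plus strand) had 28 listed positions, 10.3% of the 272 A in its transcript. ND2 (ENSG00000198763.3, chrM:4470-5511, plus strand) had 14 positions, 4.29% of its 326 A, the lowest share among the 7 genes. ND3 (ENSG00000198840.2, chrM:10059-10404, plus strand) had 6 positions, 5.88% of its 102 A.
ND4L and ND4 lie side by side, and their listed shares differed. ND4L (ENSG00000212907.2, chrM:10470-10766, plus strand) had 5 positions, 5.95% of its 84 A. ND4 (ENSG00000198886.2, chrM:10760-12137, plus strand) had 43 positions, 10.3% of its 416 A, a share close to that of ND1. Position 10760 belongs to both genes. It is the first base of the ND4 start codon and base 291 of ND4L, and it had 1 edited read of 862 in ADARcd alone.
ND5, the longest member, had most positions. ND5 (ENSG00000198786.2, chrM:12337-14148, plus strand) had 50 positions, 9.07% of its 551 A. ND6 (ENSG00000198695.2, chrM:14149-14673, minus strand) had 9 positions, 8.74% of its 103 A, and A makes up 19.6% of its transcript. The reads over each gene are given with the depth further on, and their part in these shares was not tested.

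Few ND positions were listed for both transduced libraries. Of the 154, 84 were listed with edited reads in DDX41-ADARcd and 84 with edited reads in ADARcd alone, and 14 belonged to both sets, each time with the empty vector as control. Those 14 were 17.5% of the 80 ND sites that DDX41-ADARcd had against the empty vector and 16.7% of the 84 that ADARcd alone had. Over all sites, the 402 shared positions were 11.4% and 6.27% of the same lists. The 6 positions of ND3 were all listed for ADARcd alone, with 1 or 2 edited reads of 548 to 644, and none was listed for DDX41-ADARcd. Of the 84 ND positions listed for ADARcd alone, 70 were likewise not listed for DDX41-ADARcd. Reads of DDX41-ADARcd over ND3 were not analysed here, so whether ND3 differed between the libraries was not tested.

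**Figure D1:**
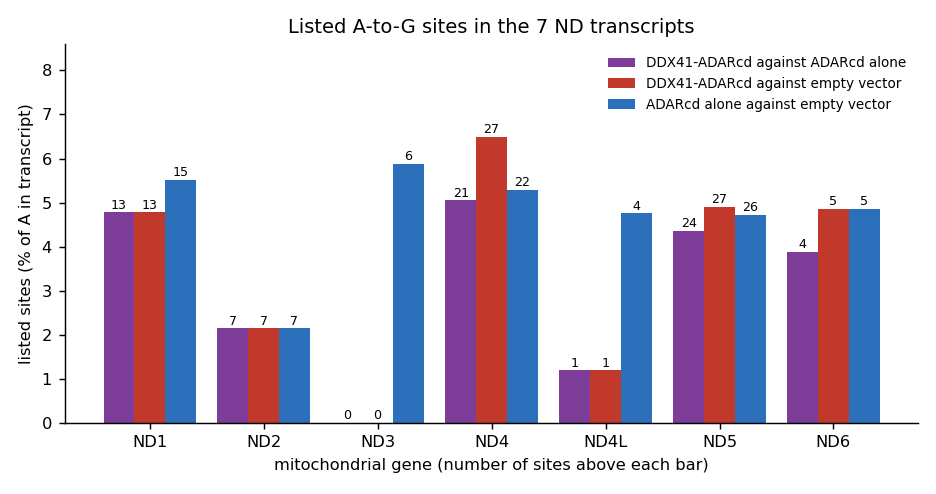
Listed sites as a percent of the A in each ND transcript, with the number of sites above each bar, for DDX41-ADARcd against ADARcd alone, DDX41-ADARcd against the empty vector and ADARcd alone against the empty vector. ND3 has 6 sites in the list of ADARcd alone and 0 in the lists of DDX41-ADARcd, and ND4L has 4 in the list of ADARcd alone and 1 in each list of DDX41-ADARcd, while ND1, ND2, ND5 and ND6 are close across lists.

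Editing at the ND sites was low in every list. The editing level, which is the edited reads as a percent of all reads at a position, had a median of 0.210% over the 70 ND sites of DDX41-ADARcd against ADARcd alone (95% interval of the median 0.156 to 0.225%). For DDX41-ADARcd against the empty vector the median was 0.217% over 80 ND sites (0.175 to 0.231%). It was 0.188% over the 84 ND sites of ADARcd alone against the empty vector (0.171 to 0.214%), and 0.348% when sites with 1 edited read were left out. The intervals of the 3 medians overlap. The other mitochondrial genes had medians of 0.114%, 0.112% and 0.0716% in the same lists, and nuclear sites with at least 300 reads in the first library had 0.176%, 0.173% and 0.172%. A listed site needs 1 edited read, so the lowest level a list can hold falls as depth rises, and the other mitochondrial sites were read more deeply than the ND sites.

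Most ND sites rested on a single edited read. That was so for 55 of 70 sites (78.6%, exact Clopper-Pearson 95% interval 67.1 to 87.5%) of DDX41-ADARcd against ADARcd alone. For DDX41-ADARcd against the empty vector it was so for 58 of 80 (72.5%, 61.4 to 81.9%), and for 61 of 84 (72.6%, 61.8 to 81.8%) of ADARcd alone against the empty vector. Over all sites of these lists the shares were 83.9%, 81.5% and 74.8%, and each of these lies inside the ND interval of its list. These intervals, and the limits given below for counts of 0, cover counting error only, since reads copied by PCR are not independent molecules. Sites with 5 or more edited reads numbered 0, 3 and 2 in the 3 lists, and all of them were in ND4.

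No ND site passed the test in any comparison. Fisher's exact test (two-sided) with Benjamini-Hochberg adjustment over all tested sites called 0 of 84 ND positions in DDX41-ADARcd against ADARcd alone, and 1 had an unadjusted p under 0.05. Over all 9227 positions of that comparison the test called 0.282%, and 0.856% had an unadjusted p under 0.05. For DDX41-ADARcd against the empty vector it called 0 of 80 ND sites, with 0 at an unadjusted p under 0.05, beside 0% of all 3512 sites called and 0.0854% unadjusted. For ADARcd alone against the empty vector it called 0 of 84 ND sites, with 0 at an unadjusted p under 0.05, beside 0.203% and 0.546% of all 6412 sites. In the comparisons with the empty vector the ND counts are thus near the background, which was itself close to 0%. In DDX41-ADARcd against ADARcd alone, all 26 calls were lower in DDX41-ADARcd and 0 were higher. Only positions shared against the empty vector could be lower there, 402 over all sites and 14 in the ND genes. All 26 calls thus lay among those 402 positions, and 0 of them among the 14. The 0.282% is therefore not the background of those 14. Nor is it that of the other ND positions, which had 0 edited reads in ADARcd alone.

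Depth set what could be seen. The empty vector had a median of 35 reads (range 10 to 91) at the ND sites listed against DDX41-ADARcd. A count of 0 edited reads of 35 allows a level of up to 8.57%. At those medians an unadjusted p under 0.05 needed 66 edited reads of 650, a level of 10.2%, and the highest ND level in any library was 1.41%. In DDX41-ADARcd against ADARcd alone the requirement at the medians of all ND sites was 6 edited reads of 642, or 0.935%. At the medians of single genes it was 4 in ND4L (0.421%) and ND4 (0.460%). It was 5 in ND1 (0.639%) and ND6 (1.55%), and 6 in ND2 (1.05%) and ND5 (1.39%). Differences of the size of the ND medians were therefore not detectable at this depth. Each control had 0 edited reads at every listed ND position, which is how the lists were selected, so the direction at those positions carries no information.

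The smallest p among ND sites was in ND5. At position 13774, base 1438 of the transcript, 4 of 347 reads were edited in DDX41-ADARcd (1.15%, 0.315 to 2.93%), against 0 of 397 in ADARcd alone, which allows up to 0.756%. The difference was 1.15 percentage points with an interval of -0.0361 to 2.93, p = 0.0469 by Fisher's exact test and 0.560 after adjustment. At the same position 10 reads of DDX41-ADARcd carried T or C, more than the 4 that carried G. Next came position 10946 of ND4 (p = 0.155, Fisher's exact test) and position 12850 of ND5, with 2 edited reads of 427 in DDX41-ADARcd against 0 of 563 in ADARcd alone (p = 0.186, Fisher's exact test).

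The other members led with fewer edited reads. In DDX41-ADARcd, ND6 position 14530 had 2 edited reads of 307 (0.651%, 0.0790 to 2.33%), against 0 of 315 in ADARcd alone. ND1 position 4038 had 2 of 687 (0.291%) in DDX41-ADARcd, against 0 of 863 in ADARcd alone. ND4L position 10700 had 2 of 949 (0.211%) in DDX41-ADARcd, against 0 of 1074 in ADARcd alone. Each of these intervals spans the floor of its control, so none separates the libraries. ND5 position 12520 had 3 of 510 (0.588%, 0.121 to 1.71%) in DDX41-ADARcd, against 0 of 436 in ADARcd alone. ND3 position 10154 had 2 of 570 (0.351%, 0.0425 to 1.26%) in ADARcd alone, against 0 of 16 in the empty vector.

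The 14 shared positions allowed a comparison in which either library could be higher, since neither was required to be at 0. Both had to have at least 1 edited read there, so the comparison is still a selected one. They lay in ND4 (6), ND5 (5), ND1, ND2 and ND6 (1 each). Edited reads summed to 40 of 9283 (0.431%) in DDX41-ADARcd and 46 of 10693 (0.430%) in ADARcd alone. Of these, 23 of the 40 and 25 of the 46 came from 3 neighbouring ND4 positions described next. The level was higher in DDX41-ADARcd at 8 positions and lower at 6, with a median ratio of 1.04 (range 0.469 to 3.53). The median difference, DDX41-ADARcd minus ADARcd alone, was 0.00323 percentage points (interval of the median -0.220 to 0.264). At 5 of the 8 the libraries had the same number of edited reads, so their order there follows from the fewer reads of DDX41-ADARcd. Counted by edited reads, DDX41-ADARcd had more at 3 positions, fewer at 6 and the same number at 5.

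ND4 carried the positions with most edited reads. Position 10943, base 184 of the transcript, had 7 edited reads of 826 in DDX41-ADARcd (0.847%, 0.341 to 1.74%) and 14 of 990 in ADARcd alone (1.41%, 0.775 to 2.36%). Position 10945, base 186, had 8 of 853 in DDX41-ADARcd (0.938%, 0.406 to 1.84%) and 7 of 1039 in ADARcd alone (0.674%, 0.271 to 1.38%). Position 10946, base 187, had 8 of 861 in DDX41-ADARcd (0.929%, 0.402 to 1.82%) and 4 of 1037 in ADARcd alone (0.386%, 0.105 to 0.985%). The intervals of the libraries overlapped at each position, and the order of the libraries was not the same at all 3. The empty vector had 0 edited reads of 34, 37 and 38 at these positions, which allows up to 8.82%, 8.11% and 7.89%.

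The remaining shared positions had at most 4 edited reads in a library. ND2 position 5322 had 2 of 642 (0.312%) in DDX41-ADARcd and 4 of 602 (0.664%) in ADARcd alone. ND5 position 13434 had 3 of 444 (0.676%) in DDX41-ADARcd and 1 of 523 (0.191%) in ADARcd alone. ND6 position 14353 had 1 of 427 in DDX41-ADARcd and 1 of 428 in ADARcd alone. At 4 of the 14 positions each library had a single edited read. The interval of the difference included 0 at all 14.

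**Figure D2:**
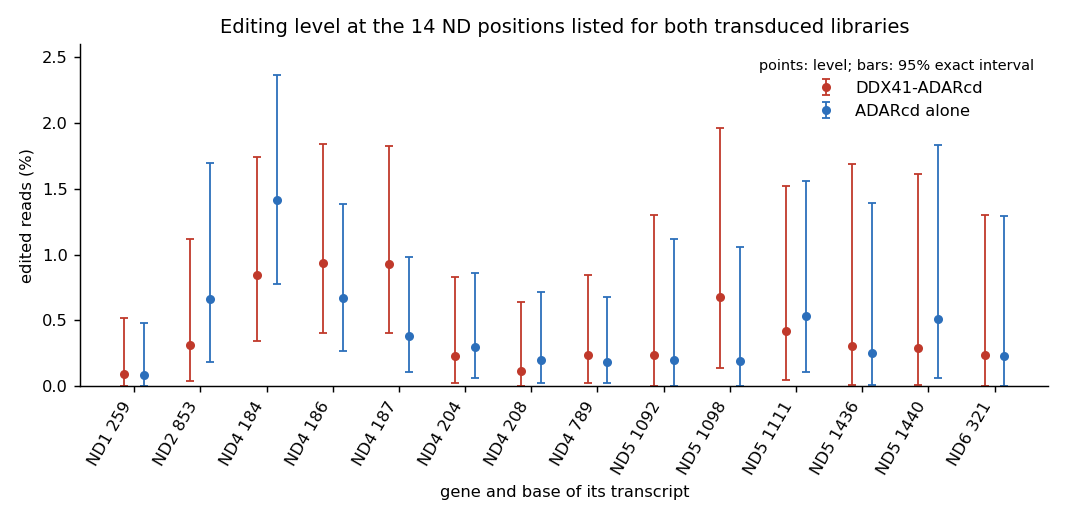
Editing level (percent of reads edited) at the 14 ND positions listed for both DDX41-ADARcd and ADARcd alone against the empty vector, ordered along the mitochondrial genome and named by gene and base of the transcript. Points are levels and bars exact 95% intervals, which overlap at every position; the highest levels are the 3 neighbouring ND4 bases 184, 186 and 187.

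Shared nuclear positions give a point of comparison. At the 76 where ADARcd alone had 5 or more edited reads, the median level was 0.900% in DDX41-ADARcd, against 6.59% in ADARcd alone. The level was lower in DDX41-ADARcd at 71 and higher at 5, with a median ratio of 0.205. These nuclear positions were chosen by their reads in ADARcd alone, so their direction is a description only. Over all 381 shared nuclear positions, edited reads summed to 737 of 308700 (0.239%) in DDX41-ADARcd and 4591 of 415668 (1.10%) in ADARcd alone. The 76 positions held 4111 of these 4591 reads. By position, the level was higher in DDX41-ADARcd at 228 of the 381 and lower at 153, with a median ratio of 1.24. Counted by edited reads, DDX41-ADARcd had more at 66, fewer at 159 and the same number at 156. At the 7 shared positions of other mitochondrial genes the level was higher in DDX41-ADARcd at all 7. At 6 of these, each library had a single edited read. The difference between ND and nuclear positions was not tested.

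Reads with T or C at the listed A outnumbered edited reads in the ND4 and ND5 stretches printed above. In the ND4 stretch, chrM:10943-11011, DDX41-ADARcd had 29 reads with G and 71 with another base (56 C and 15 T) of 5997 over its 7 listed positions. ADARcd alone had 36 reads with G and 104 with another base (91 C and 13 T) of 9864 over its 10 listed positions. Summed over the stretch, C was therefore read more often than G in either library, but this did not hold at every position. At position 10943, DDX41-ADARcd had 7 reads with G, 6 with C and 9 with T, and ADARcd alone had 14 with G, 10 with C and 6 with T. At position 10945, DDX41-ADARcd had 25 reads with C, 2 with T and 8 with G, and ADARcd alone had 19 with C, 1 with T and 7 with G. The empty vector had 1 read with another base of 37 there.

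**Figure D3:**
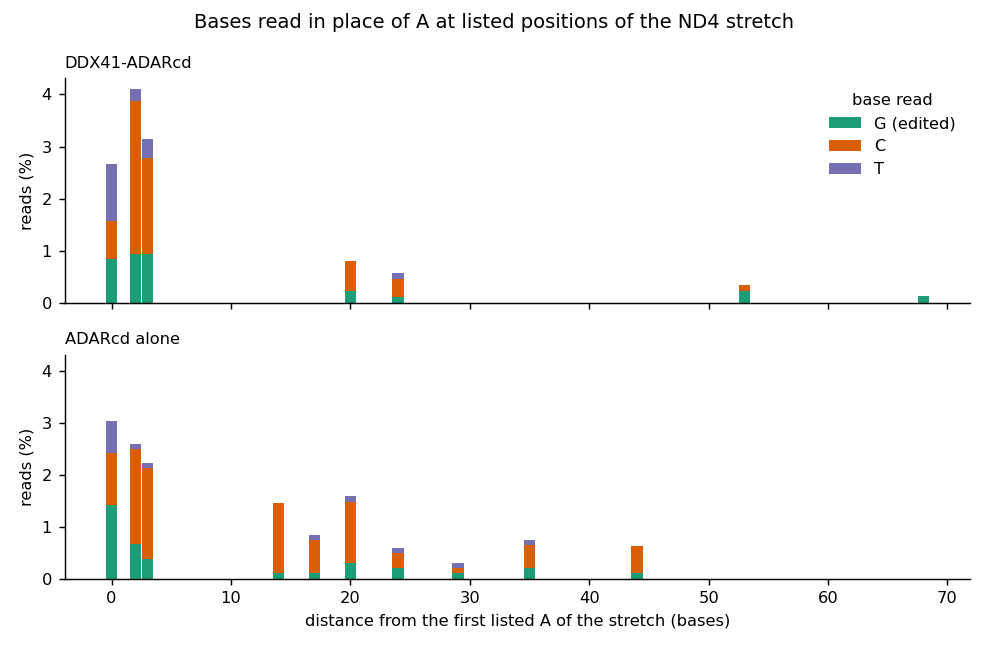
Percent of reads with G, C or T at the listed positions of the ND4 stretch against the distance in bases from its first listed A, for DDX41-ADARcd (7 positions) and ADARcd alone (10 positions). A position without a bar is not listed for that library; C makes up most of the height at the second position in each library, with 25 C reads against 8 G reads in DDX41-ADARcd and 19 against 7 in ADARcd alone.

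The ND5 stretches showed the same mixture. In chrM:13772-13790, DDX41-ADARcd had 13 reads with G and 52 with T or C of 2765 over 8 listed positions. ADARcd alone had 3 with G and 7 with T or C of 790 over its 2 listed positions. In chrM:13428-13447, DDX41-ADARcd had 7 with G and 8 with T or C of 1793, and ADARcd alone had 7 with G and 16 with T or C of 2104. Elsewhere in ND2, at chrM:5006-5045, ADARcd alone had 7 reads with G and 1 with another base of 2510 over 5 positions, so not every stretch of ND sites had this feature.

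Over all ND sites, T or C made up 0.166% of the reads in DDX41-ADARcd, against 0.113% in ADARcd alone, for the list that compares them. The shares were 0.304% in DDX41-ADARcd and 0.267% in the empty vector, and 0.276% in ADARcd alone and 0.247% in the empty vector, for the other lists. The shares of the empty vector rest on 8 of 2992 and 7 of 2835 reads. In the first library of each list, few ND sites held a large part of the T and C reads. T or C reached 1% at 4, 9 and 7 sites, with 33 of 73, 106 of 157 and 91 of 168 such reads. At the other 66, 71 and 77 ND sites the shares in the first library were 0.0938%, 0.109% and 0.140%. Nuclear sites had 0.139%, 0.118% and 0.0957% in the first library. In the other mitochondrial genes the shares were 0.0846% in DDX41-ADARcd and 0.0503% in ADARcd alone, 0.0875% in DDX41-ADARcd and 0.0516% in the empty vector, and 0.0889% in ADARcd alone and 0.0334% in the empty vector. A two-sided Fisher's exact test of the T and C reads with Benjamini-Hochberg adjustment called 0 of 70, 0 of 80 and 0 of 84 ND sites, beside 0.0113%, 0% and 0.0156% of all sites. At an unadjusted p under 0.05 there were 3, 0 and 0 ND sites, beside 0.204%, 0.256% and 0.374% of all sites. Without the ND sites where T or C reached 1%, an alternative chosen after seeing the data, the median ND editing levels were 0.199%, 0.209% and 0.182%.

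Runs of C lay beside the positions rich in T and C reads. T or C reached 1% of reads at 13 ND positions in a transduced library for which the position was listed as edited, 5 in ND4 and 8 in ND5. ND1 position 3729 also reached it, with 1.15% in ADARcd alone, but had 0 edited reads there and is counted among the other ND sites. A run of at least 4 C lay within 10 bases of 10 of these 13 (76.9%), as in the ND4 stretch and the second ND5 stretch printed above. Such a run lay beside 19 of the 141 other ND sites (13.5%) and beside 231 of all 1851 A in the 7 transcripts (12.5%). C made up a median of 50% of the flanking bases at the 13 positions, against 35% at the other ND sites and 35% at all A. Many of the 13 share a stretch and its reads, so they are not independent, and what part the runs had in the T, C or G reads was not tested.

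The bases beside the listed ND sites were close to those beside any A of the same transcripts. G followed 29 of 154 ND sites (18.8%), against 14.2% of all 1851 A. In ADARcd alone, G followed 55.5% of 254 nuclear sites that had 5 or more edited reads. U preceded 24.0% of the ND sites, against 30.0% of all A, and 45.3% of those nuclear sites. The catalytic domain of ADAR is known to favour U before and G after the edited A. The 39 ND positions with 2 or more edited reads had G after 12.8% and U before 30.8%, and C after 46.2%, against 30.4% of all A. C was the most frequent next base both at these 39 positions and at all A. Some of the 39 share a stretch and its reads, so they are not independent. The nuclear sites needed 5 or more edited reads, and nuclear sites with fewer were not compared.

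**Figure D4:**
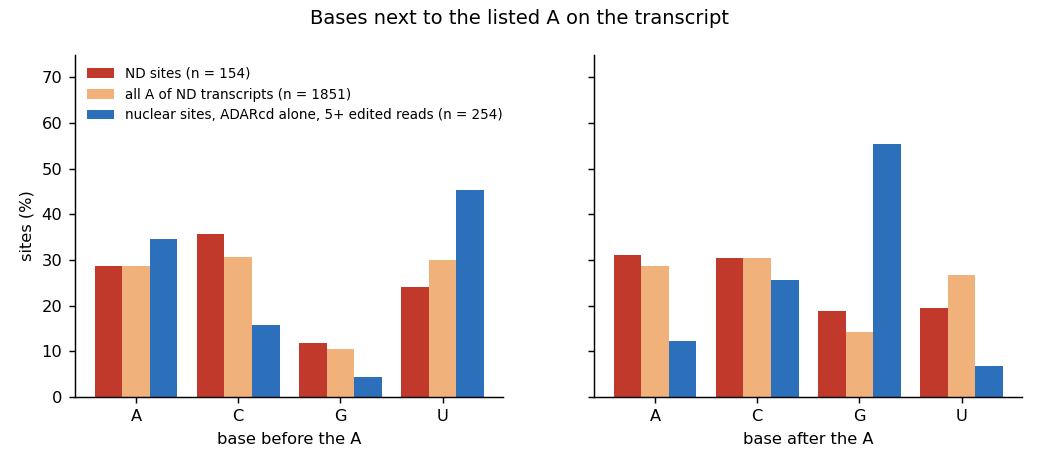
Percent of sites with A, C, G or U before and after the listed A on the transcript, for the 154 ND sites, 254 nuclear sites edited in 5 or more reads of ADARcd alone, and all 1851 A of the ND transcripts. G follows 18.8% of the ND sites and 14.2% of all A, against 55.5% of the nuclear sites.

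The third codon position held most of the ND sites. Of the 154, 80 (51.9%) were at the third codon position, against 40.8% of all A, and 23 (14.9%) at the second, against 21.3%. Every A-to-G change at the third position in these frames leaves the amino acid unchanged in the vertebrate mitochondrial code. Neighbouring sites of ND4 were a median of 18 bases apart, and those of ND5 22, while the gaps were 33 bases in ND2 and 47 in ND6. Of the 42 gaps in ND4, 22 were at most 20 bases, and of the 49 in ND5, 24 were.

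Reads over the ND genes stood higher in DDX41-ADARcd, relative to ADARcd alone, than over most other listed positions. The median read ratio, DDX41-ADARcd over ADARcd alone, was 0.881 over the 70 ND sites. The interval of this median was 0.853 to 0.905, and the sites ranged from 0.758 to 1.22. That interval treats the positions as independent, although nearby ones share reads, so it is too narrow. It holds no spread between libraries. The median ratio was 0.733 over the other mitochondrial sites, 0.713 over nuclear sites with at least 300 reads and 0.661 over all sites. Relative to the deep nuclear sites the ND ratio was 1.24 times as high, a difference between sets of positions that was not tested. In bulk RNA, fewer cells with a transcript and less of it in each cell cannot be told apart, and the reads were not scaled by library totals. Strand-specific counting is not stated, so reads of ND6 and of RNA from the strand opposite to it cannot be told apart. Near-identical copies of mitochondrial DNA in the nuclear genome could also share reads with the ND genes, and this was not tested.

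The members differed in depth and in their ratios. ND4L, ND4 and ND1 were read most deeply. At positions with reads in all 3 libraries, ND4 had medians of 863 reads in DDX41-ADARcd, 1012 in ADARcd alone and 48 in the empty vector. ND1 had medians of 797 in DDX41-ADARcd, 869 in ADARcd alone and 41 in the empty vector. ND2 had 581 in DDX41-ADARcd, 602 in ADARcd alone and 28 in the empty vector. ND5 and ND6 were the shallowest, so their levels are the least precise. ND5 had medians of 432 reads in DDX41-ADARcd, 436 in ADARcd alone and 28 in the empty vector. ND6 had 328 in DDX41-ADARcd, 350 in ADARcd alone and 22 in the empty vector. The only ND4L position listed with reads of all 3 libraries had 949 in DDX41-ADARcd, 1074 in ADARcd alone and 71 in the empty vector.

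In the list that compares the transduced libraries, the median ratio was 0.965 for ND6 and 0.954 for ND2, the highest of the genes, followed by 0.895 for ND5, 0.852 for ND4 and 0.849 for ND1. The ranges of these genes overlapped, with ND1 at 0.788 to 1.14, ND2 at 0.901 to 1.12, ND4 at 0.769 to 0.939, ND5 at 0.758 to 1.22 and ND6 at 0.900 to 0.977. Neighbouring genes in this order therefore do not differ beyond the spread of their positions. The single ND4L site of this list had 0.884. Among the other mitochondrial genes, COX3 (0.679), COX1 (0.689) and COX2 (0.772), which encode the core of cytochrome c oxidase, had lower medians than these. ATP6 (0.853), CYTB (0.858) and ATP8 (0.982) lay within the range of the ND genes or above it.

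The ratio changed along ND1 and ND5. ND1 had a median ratio of 1.09 in the first of 3 equal parts of its transcript (6 positions), 0.844 in the middle (4 positions) and 0.801 in the last (4 positions). At its position 3349, near the 5′ end, DDX41-ADARcd had 646 reads and ADARcd alone had 568, while at 3957 DDX41-ADARcd had 782 and ADARcd alone had 992. ND5 had 1.06 in the first part (8 positions), 0.846 in the middle (9 positions) and 0.886 in the last (12 positions). Its 5 positions from 12495 to 12615 were above 1, and the next, 12850, had 427 reads in DDX41-ADARcd, against 563 in ADARcd alone. The 3 positions nearest the 3′ end of ND5, from 13906 to 14029, were again above 1. ND4 was flat by comparison, with 0.860, 0.841 and 0.824. ND2 ran the other way, with 0.905 in the middle part (3 positions) and 1.06 in the last (4 positions). Nearby positions share reads, so these are descriptions with no test.

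**Figure D5:**
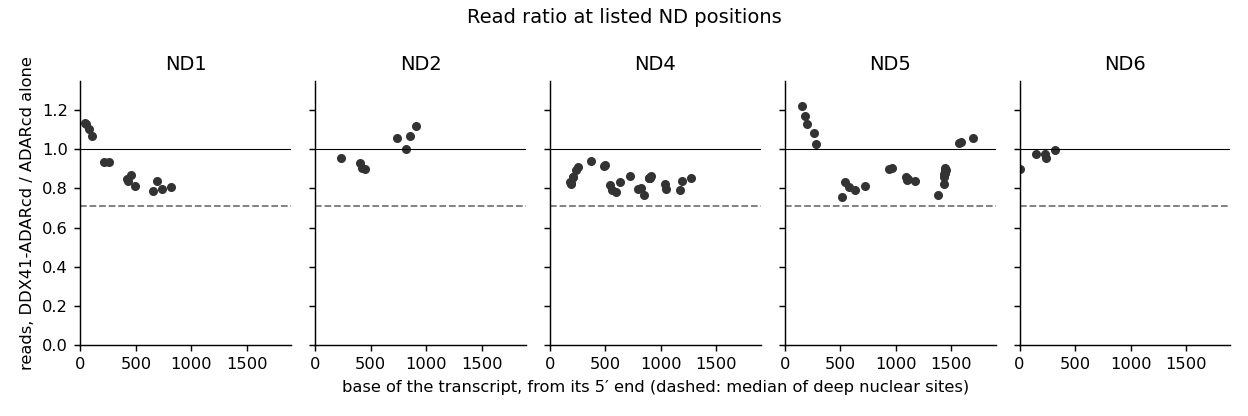
Ratio of reads, DDX41-ADARcd over ADARcd alone, at listed positions of ND1, ND2, ND4, ND5 and ND6 against the base of the transcript; the solid line marks 1 and the dashed line the median of deep nuclear sites (0.713). All points lie above the dashed line; ND1 and ND5 start above 1 near the 5′ end and drop below it, ND5 returns above 1 at its 3 last positions, and ND2 rises above 1 toward its 3′ end.

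Against the empty vector the ND genes had still higher ratios. The median was 17.6 for DDX41-ADARcd over the empty vector at ND sites (interval of the median 16.1 to 18.5, range 11.5 to 26.2). It was 11.5 at the other mitochondrial sites and 5.75 at deep nuclear sites. For ADARcd alone over the empty vector the median was 20.7 at ND sites (interval of the median 19.2 to 22.7, range 12.9 to 35.9). It was 16.3 at the other mitochondrial sites and 8.92 at deep nuclear sites. The ND ratios were thus 3.06 and 2.32 times those of the deep nuclear sites, for DDX41-ADARcd and for ADARcd alone. Every listed site has an edited read in the first library and 10 or more reads in the control, so these ratios describe listed positions, not whole transcripts. The intervals of these medians also treat positions that share reads as independent.

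By the pattern of the 3 median read ratios, the 2 genes nearest to the ND genes were mitochondrial, but nuclear genes came before the COX genes. Among 341 genes with 3 or more sites in each list, ATP6 was nearest (distance 0.117 on the log2 scale), followed by CYTB (0.151). The ratios of ATP6, a subunit of ATP synthase, were 0.853, 18.6 and 21.8, and those of CYTB, a subunit of complex III, were 0.858, 19.4 and 20.2. LOC101929516 (0.435), HNRNPA1 (0.503), an RNA-binding protein gene, and FTH1 (0.525), the ferritin heavy chain gene, came next outside the ND genes, and the counts of the last 2 may include reads of near-identical pseudogenes. COX3 (0.684), COX1 (1.08) and COX2 (1.19) were farther away than these nuclear genes.

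The nuclear genes for the rest of complex I had few sites. Of 37 nuclear subunit genes, 13 were listed with 18 sites for DDX41-ADARcd against ADARcd alone, 7 with 9 sites for DDX41-ADARcd against the empty vector, and 12 with 20 sites for ADARcd alone against the empty vector. Of these, 16, 9 and 20 sites had 10 or more reads in each library, and Fisher's exact test with Benjamini-Hochberg adjustment called 0 of them, with 0 at an unadjusted p under 0.05. The median levels of the listed subunit sites were 1.87%, 1.37% and 0.744%, higher than at the ND sites and at a median first-library depth of 57, 84 and 140.5 reads. The highest count was in NDUFV1, the subunit that binds FMN, with 9 edited reads of 68 in ADARcd alone (13.2%, 6.23 to 23.6%), against 0 of 14 in the empty vector (p = 0.346, Fisher's exact test). NDUFA11, a membrane-arm subunit, had 5 of 109 in ADARcd alone (4.59%, 1.51 to 10.4%), against 0 of 13 in the empty vector. In DDX41-ADARcd no nuclear subunit site had more than 2 edited reads, and NDUFB4, also of the membrane arm, had 2 of 118 (1.69%), against 0 of 163 in ADARcd alone.

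Genes that build the complex or process mitochondrial mRNAs were also looked up. Of 17 complex I assembly genes, 3 were listed with 4 sites for DDX41-ADARcd against ADARcd alone and 0 in the lists against the empty vector. Of 25 genes of mitochondrial RNA maturation, 8 were listed with 13 sites for DDX41-ADARcd against ADARcd alone, 0 for DDX41-ADARcd against the empty vector and 2 with 7 sites for ADARcd alone against the empty vector. LRPPRC, which stabilises mitochondrial mRNAs, held 5 of the 13 sites and 6 of the 7. Tested were 2 of the 4 assembly sites, 10 of the 13 maturation sites and all 7, and 0 were called, with 0 at an unadjusted p under 0.05. All 6 other mitochondrial protein genes were listed in each list, with 78, 83 and 109 sites, none called. As a check of the cell line, 9, 8 and 10 of 16 monocytic and myeloid genes were listed, led by PRTN3 with 15, 12 and 18 sites, with 1, 0 and 0 sites at an unadjusted p under 0.05 and 0 called of the 57, 42 and 74 tested. Of 8 marker genes of other cell types, 0 were listed in each list. A gene can be seen only where a list holds a site in it, so an unlisted marker is not shown to be unexpressed.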

How the data were processed

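RNA editing was measured in 3 THP-1 libraries, 1 in each of 3 groups set by the transgene label. The deposited values are counts: per the file headers, unnormalized reads of each base and their total, for 2 libraries at every listed position. Per the submitters' processing notes, STAR 2.5, FastQC 0.11.7, CASAVA 1.4 and mm10, a mouse build, were named. For the site caller and its filters, the sources used here give no name. Column headers do not say which library they hold, so the first-named library of each list was read as the edited one and the other as its control. Totals of a library were equal between lists at 66 of 66 (DDX41-ADARcd) and 14 of 14 (empty vector) shared ND positions. The lists that hold ADARcd alone share no position, so its totals could not be compared. All 235 ND entries lay inside the named gene of human GENCODE 29 (GRCh38), with A on the transcript. Entries repeating a position were joined.

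Sites with at least 10 reads in each library were tested by a two-sided Fisher's exact test, Benjamini-Hochberg adjusted over all sites of a comparison, threshold 0.05. Against ADARcd alone, the list was extended by positions shared against the empty vector. Shares have exact Clopper-Pearson 95% intervals, medians order-statistics intervals, and a count of 0 a floor of 3 reads. The intervals of medians treat positions as independent, although nearby positions share reads. Stretches are 5 or more ND sites of a gene, neighbours at most 20 bases apart. The test was tried on simulated data. Python 3.11.15, numpy 2.4.6, pandas 2.3.3, scipy 1.17.1 and matplotlib 3.10.9 were used.

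The members and gene lists were chosen with earlier results of these data known. Named were all 7 genes; per list and gene the site with most edited reads and per list the 5 highest levels; shared positions with 5 or more edited reads; the 3 smallest p per comparison; and the 5 genes nearest by read ratios. Further positions, and the stretches, were chosen after their values were seen. Alternatives were other minimums of reads and edited reads, Bonferroni adjustment, an unadjusted p, halved reads, pooled levels, summed reads and entries as deposited.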

Additional observations from a re-analysis of the deposited data

Results flagged for a closer look

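Reads with T or C, which are not part of the editing measure, stood above the level in ADARcd alone at an unadjusted p under 0.05 at 2 positions of the second ND5 stretch. At position 13774 they made up 2.88% of the reads in DDX41-ADARcd (10 of 347) and 0.756% in ADARcd alone (3 of 397), with p = 0.0456 by Fisher's exact test and 1 after adjustment. At position 13779 they made up 2.53% of the reads in DDX41-ADARcd (9 of 356) and 0.252% in ADARcd alone (1 of 397), with p = 0.00806 by Fisher's exact test and 1 after adjustment. The opposite held at ND1 position 3729, where T or C made up 0.245% of the reads in DDX41-ADARcd (2 of 815) and 1.15% in ADARcd alone (11 of 960), with p = 0.0462 by Fisher's exact test and 1 after adjustment. Other positions of the ND5 stretch leaned the same way as 13774 without a p under 0.05, such as 13777 with 2.03% in DDX41-ADARcd and 1.53% in ADARcd alone (p = 0.781, Fisher's exact test) and 13780 with 2.08% in DDX41-ADARcd and 1.08% in ADARcd alone (p = 0.366, Fisher's exact test). Both ND5 positions lie beside a run of C.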

How the results depend on the processing

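Of 55 alternative values, 31 were identical to the reported ones. Many of these could not have differed: no ND site has under 100 reads in the first library, and stricter tests cannot add to 0 calls, so they say nothing of stability. Another 19 differed within the interval of the reported value. The remaining 5 were the ND sites of DDX41-ADARcd against ADARcd alone at an unadjusted p under 0.05 (1 site instead of 0), the median ND level over sites with 2 or more edited reads (0.251% for DDX41-ADARcd against ADARcd alone, 0.301% for DDX41-ADARcd against the empty vector and 0.348% for ADARcd alone against the empty vector), and the pooled ND level of DDX41-ADARcd against the empty vector (0.238%). The median read ratio and the share of sites with 1 edited read stayed within their intervals under the 9 alternatives of each. Leaving out positions where T or C reached 1%, and leaving out ND4 for the read ratio, were chosen after seeing the data. No paired analysis was possible because each group has 1 library, which also means that no library could be left out. The depth of the empty vector, a median of 35 reads at ND sites of DDX41-ADARcd, limits any comparison with it to levels near 10.2%.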
